A study of Mus musculus with 3 samples.

Results

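Inguinal lymph nodes of mice given 20(OH)D3, a vitamin D3 derivative with its hydroxyl group on the side chain, were compared with nodes of mice given the vehicle, 1 library a side. The comparison covered 13428 of the 46951 loci of the deposited gene table, kept where FPKM averaged 1 or more across the 3 libraries and normalized counts summed to 20 or more. FPKM counts fragments per length of transcript and size of library. A further 604 loci reached 1 FPKM but not 20 counts, and the lowest mean FPKM inside and the highest outside were both 1.00. All mice were male C57BL/6j mice that had received DNFB (dinitrofluorobenzene), a contact sensitizer, on the skin of the abdomen. Starting 3 days later they were injected into the peritoneum once a day for 4 days with the vehicle EtOH, with 20(OH)D3 or with 25(OH)D3, each compound at 4 µg/kg per day, and nodes were taken 24 hours after the last dose. The series description instead gives 1 week of treatment. Whether a library came from 1 mouse or from several is not given, and no untreated or unsensitized node was analysed here.

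Vitamin D3 derivatives act mainly through the vitamin D receptor, a nuclear receptor that pairs with a retinoid X receptor on DNA, and other nuclear receptors have been described as targets of 20(OH)D3. Inguinal nodes drain the skin of the flank and abdomen and lie within a subcutaneous fat pad. A node holds B and T lymphocytes on a stroma of fibroblastic reticular cells, vessels and macrophages, and after skin sensitization it receives dendritic cells from the skin.

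The vehicle library held 8226431 reads and the 20(OH)D3 library 7522550, as worked back from the normalized counts. Each group had 1 library, so no difference had a replicate check and no p-value is given. Every ratio describes these 2 libraries and not the treatments. Each ratio of counts is followed by its exact 95% interval, which covers counting error only. Values of a gene are given in the order vehicle, 20(OH)D3, 25(OH)D3. The tissue label was checked against markers, and all 20 B cell and 21 T cell genes listed passed the filter, while 12 of 13 epithelial and keratin genes did not. The third library is shown for reference and shares the vehicle library with the comparison.

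Most of the transcriptome was close in both libraries, and the loci that stood apart were nearly all higher with 20(OH)D3. On the scale of log2 (normalized count + 10), the ratio of 20(OH)D3 to vehicle had a median of -0.02 over the 13428 loci, and 90% of them lay between the 5th percentile of -0.48 and the 95th of 0.81. Within 1.2-fold of vehicle stood 57.4% of loci, and within 1.5-fold 87.9%. The log2 ratio was above 0 at 47.1% of loci, the background for the number of list members above or below 0. How many of all loci had a counting interval clear of 1 was not counted. A locus was called when it stood at least 2-fold apart on both log2 (FPKM + 1) and log2 (normalized count + 10). By this rule 337 loci were higher, 2.51% of those examined, and 20 were lower, 0.149%. On FPKM alone 475 were higher (3.54%) and 66 lower (0.492%), and on normalized counts alone 412 (3.07%) and 31 (0.231%). At 3-fold on the count scale the numbers were 88 and 3, and at 4-fold 27 and 1. Without the members of the fat gene lists 290 and 20 were called.

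**Figure D1:**
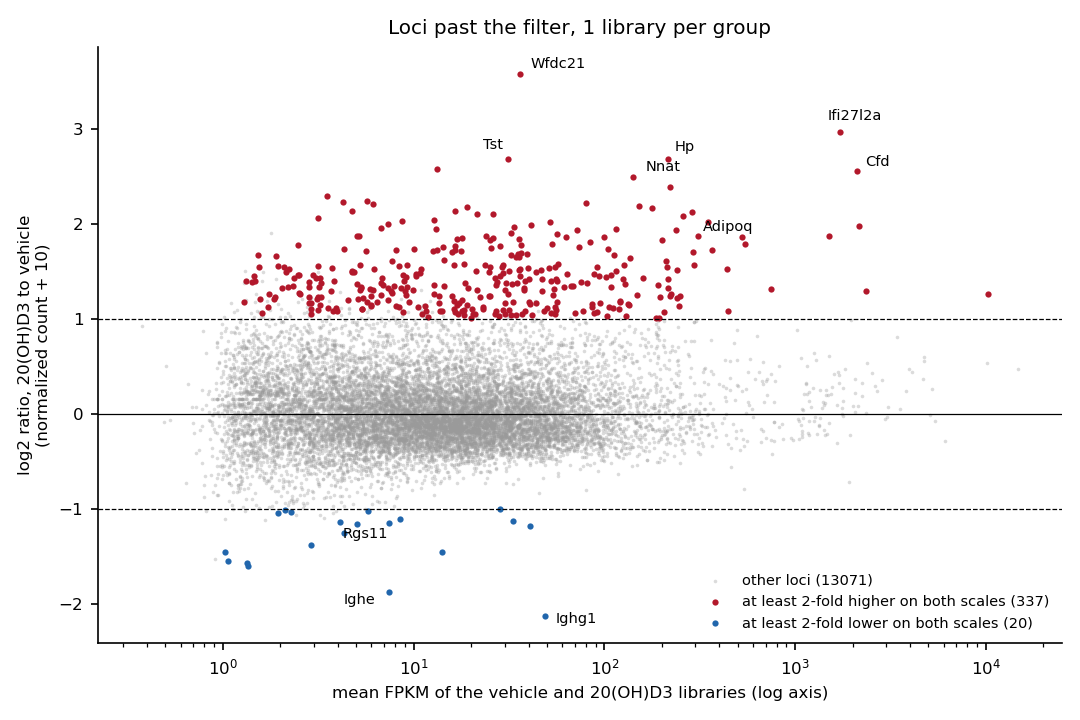
Each point is 1 of the 13428 loci, plotted by its mean FPKM in the vehicle and 20(OH)D3 libraries (x, log axis) and its log2 ratio of normalized count + 10 (y), with dashed lines at 2-fold. The 337 loci called higher (red) spread over the whole range of expression and the 20 called lower (blue) lie mostly under 50 FPKM.

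The called loci of the higher group were mostly ordinary messenger RNAs present in both libraries. Of the 337, 297 were protein-coding, 311 reached 1 FPKM in the vehicle library, and 57 rested on fewer than 20 vehicle reads. For 229 of them the lower bound of the counting interval was above 2. Together they took 1.49% of the normalized counts of the vehicle library, 4.51% of the 20(OH)D3 library and 2.19% of the 25(OH)D3 library. The 20(OH)D3 library was the highest of the 3 at 327 of them. The loci were chosen for standing above vehicle in that library, so its larger share and its rank follow in large part from the choice. In the 25(OH)D3 library 42 were also at least 2-fold above vehicle by counts, 202 were 1.2-fold to 2-fold above it, 78 were within 1.2-fold and 15 were lower.

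Calls were more frequent among abundant loci and among short transcripts. Where FPKM averaged 100 or more 6.82% of loci were called higher, against 1.32% of those at 1 to 2 FPKM. The amounts added to FPKM and counts before a call shrink the ratios of low loci more than those of abundant ones. The difference in calls between these expression classes is thus in part built into the rule, and how large that part is was not tested. Among protein-coding loci whose annotated transcripts had a median length under 500 nucleotides, the median log2 count ratio was 0.15 and 11.1% were called higher. At 6000 nucleotides or more the median was -0.15 and 0.504% were called higher. The part of transcript length in the gene groups described here was not tested. The median length is given for some lists and not for all.

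**Figure D2:**
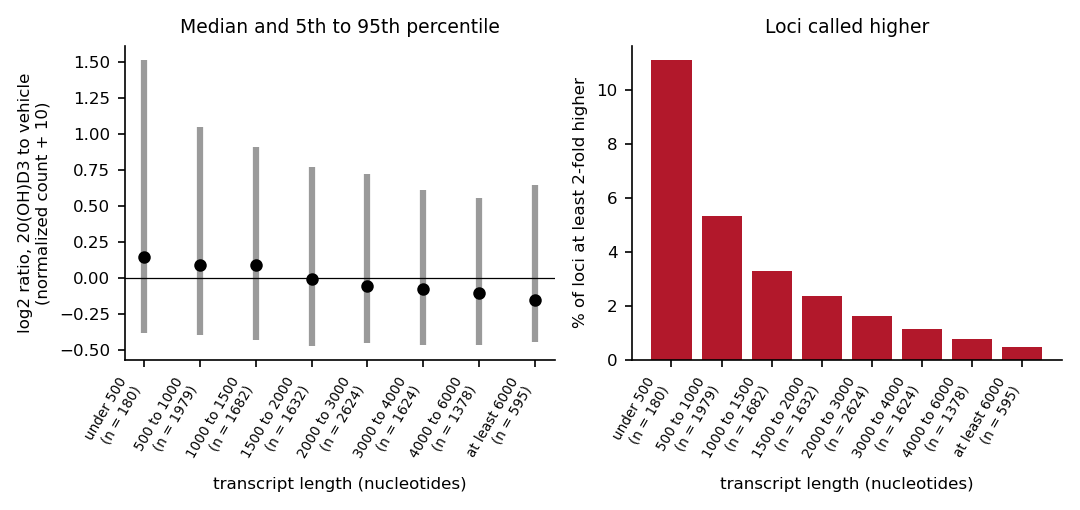
Protein-coding loci are grouped by the median length of their annotated transcripts (x, nucleotides). Points on the left show the median log2 ratio of normalized count + 10 and grey bars its 5th to 95th percentile, and bars on the right the percentage called higher, which goes from 11.1% under 500 nucleotides to 0.504% at 6000 or more.

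Genes of adipocytes, the fat-storing cells, stood far higher in the 20(OH)D3 library. Of 24 adipocyte genes 22 were called higher, against 2.51% of all loci. Their median log2 count ratio was 1.73 against -0.02 over all loci. This list, like the others, was chosen with earlier results of these data known, so its count is a description only. The list took 0.452% of the counts of the vehicle library, 1.63% of the 20(OH)D3 library and 0.775% of the 25(OH)D3 library. The median length of its transcripts was 1497 nucleotides. Pparg, the nuclear receptor that drives adipocyte differentiation, stood at 6.60, 31.7 and 20.0 FPKM, a count ratio of 20(OH)D3 to vehicle of 4.89 (interval 3.93 to 6.15). Its partner in that programme, the transcription factor Cebpa, stood at 32.8, 115 and 47.4 FPKM (ratio 3.41, 3.13 to 3.71). Both regulators were lowest in the vehicle library and highest with 20(OH)D3.

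Secreted and surface proteins of adipocytes were among the highest of the list. Retn, which encodes the adipokine resistin, stood at 53.8, 250.8 and 95.6 FPKM (ratio 4.65, 4.14 to 5.25). The satiety hormone leptin, Lep, stood at 4.72, 13.1 and 4.70 FPKM (2.77, 2.26 to 3.41), so that its level with 25(OH)D3 was that of vehicle. The beta-3 adrenergic receptor gene Adrb3, through which catecholamines trigger lipolysis in rodent fat, stood at 11.4, 38.7 and 14.8 FPKM (3.68, 3.15 to 4.32). Aqp7, a glycerol channel, had a ratio of 4.52 (3.27 to 6.37) and the insulin-regulated glucose transporter gene Slc2a4 a ratio of 3.01 (2.57 to 3.53). Sncg, gamma-synuclein, was at 19.5, 84.3 and 13.7 FPKM, high in the 20(OH)D3 library alone. Of the 2 members not called, the activin receptor gene Acvr1c was low and had a count ratio of 2.91 (2.17 to 3.93). Adcy6, an adenylate cyclase found in many cells, stood at 20.7, 17.4 and 18.8 FPKM (0.843, 0.770 to 0.923).

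Proteins of the lipid droplet and its breakdown stood higher too. Of 16 tested members 16 had a count ratio above 1 and 11 were called, with a median log2 ratio of 1.35. G0s2, an inhibitor of adipose triglyceride lipase, was highest at 27.1, 133 and 45.7 FPKM (ratio 4.90, 4.15 to 5.82). Cidec, which enlarges lipid droplets, stood at 64.4, 289 and 92.1 FPKM (4.54, 4.22 to 4.89). The droplet coat proteins differed among themselves. Plin1, the coat protein of mature adipocytes, stood at 56.1, 168 and 82.7 FPKM (3.20, 2.99 to 3.44), and Plin4 at 16.5, 57.0 and 17.4 FPKM (3.45, 3.20 to 3.74). Plin2, found on droplets of most cells, had a ratio of 1.70 (1.54 to 1.88), and Plin3 a ratio of 1.06 (0.909 to 1.23). The lipases ran together, with Pnpla2 at 2.37 (2.26 to 2.49), Lipe at 2.75 (2.57 to 2.95) and Mgll at 2.84 (2.6 to 3.09). These act in turn on triglyceride, diglyceride and monoglyceride.

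Uptake of fatty acids and their assembly into triglyceride was called in 9 of 16 genes, whereas de novo synthesis of fatty acids was called in 0 of 16. The medians of the log2 count ratio were 1.13 and 0.09. Among the first group, lipoprotein lipase Lpl stood at 137, 448 and 259 FPKM (ratio 3.27, 3.17 to 3.38) and the fatty acid transporter Cd36 at 65.4, 188 and 78.9 FPKM (2.97, 2.80 to 3.15). The acyltransferases that make triglyceride, Agpat2, Dgat1 and Dgat2, had ratios of 2.7 (2.48 to 2.94), 2.30 (2.02 to 2.63) and 2.19 (2.04 to 2.34). Acsl5, an acyl-CoA synthetase, was the lowest of the group at 34.4, 28.4 and 33.8 FPKM (0.824, 0.747 to 0.910).

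Among the genes of synthesis, fatty acid synthase Fasn stood at 413, 460 and 850 FPKM (ratio 1.10, 1.07 to 1.13). ATP citrate lyase, Acly, which supplies the acetyl-CoA, stood at 105, 88.8 and 164 FPKM (0.791, 0.745 to 0.840), and the elongase Elovl6 at 8.47, 5.86 and 16.1 FPKM (0.687, 0.589 to 0.799). All 3 were highest in the 25(OH)D3 library. Mlxipl, which encodes the carbohydrate-responsive factor ChREBP, was the highest of the group by counts at 2.43 (1.93 to 3.06) but stood at 6.96, 10.3 and 13.5 FPKM, so it was not called. At the median, the synthesis list was higher with 25(OH)D3 than with 20(OH)D3, with a log2 count ratio to vehicle of 0.61, and the uptake list was lower with it, at 0.53. Both comparisons share the vehicle library.

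**Figure D3:**
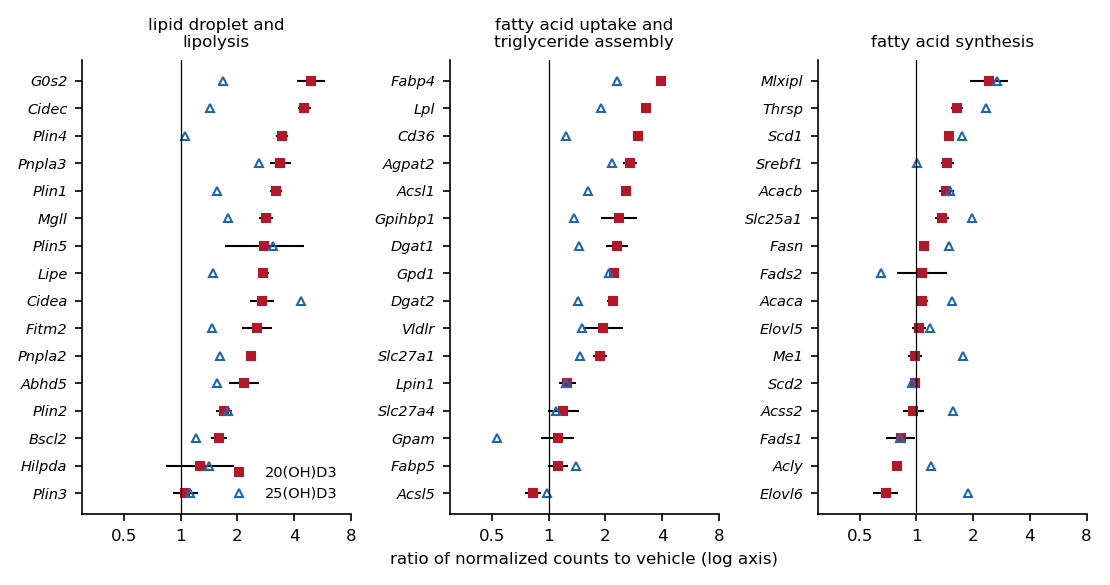
Ratios of normalized counts to vehicle (x, log axis) are shown for the tested genes of 3 lipid lists, with red squares for 20(OH)D3 and the 95% counting interval as a bar, and open blue triangles for 25(OH)D3 without an interval. Most droplet and triglyceride genes lie above 2 with 20(OH)D3, while genes of fatty acid synthesis such as Fasn, Acly and Elovl6 lie near or below 1.

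The list of brown and beige fat genes was called in 5 of 9 tested members, beside 2.51% of all loci called higher. Of the 9, 7 reached 1 FPKM in the vehicle library, and the rest passed the filter through the other libraries. The count of 5 of 9 thus depends in part on the filter. Cox8b, a cytochrome oxidase subunit of brown fat and muscle, was highest at 66.1, 373 and 327 FPKM (ratio 5.64, 4.58 to 6.99). Cox7a1, a respiratory subunit of brown fat and muscle, stood at 10.4, 56.8 and 52.7 FPKM and rested on 21 vehicle reads (ratio 5.38, 3.34 to 9.07). The potassium channel gene Kcnk3 stood at 3.81, 9.06 and 10.5 FPKM (2.36, 1.90 to 2.94). The proton channel gene Otop1, at 1.56, 3.95 and 4.60 FPKM, was not called. Cpt1b, the muscle and brown fat carnitine transferase, was lowest at 79.0, 87.1 and 109 FPKM (1.11, 1.01 to 1.22). The regulators Ppargc1a, Ebf2 and Zic1 and the deiodinase Dio2 were under the filter. Another regulator, Prdm16, passed it and was not called, at a log2 count ratio of 0.80. The list also holds the uncoupling protein gene Ucp1, whose values are not given here. In contrast to the white adipocyte genes, several of this list were as high or higher with 25(OH)D3, among them Cidea at 28.4, 77.0 and 125 FPKM.

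Enzymes that handle toxic and oxidized molecules, many of them abundant in fat and liver, held 7 called members of 17. The sulfur transferase Tst stood at 7.54, 55.2 and 14.8 FPKM (ratio 7.31, 5.61 to 9.66). Mgst1, a membrane glutathione transferase, stood at 97.9, 417 and 162 FPKM (4.30, 3.91 to 4.73). The soluble epoxide hydrolase gene Ephx2 had a ratio of 4.07 (3.57 to 4.67) and the maleylacetoacetate isomerase gene Gstz1 one of 3.9 (3.49 to 4.37). Cyp2e1, the ethanol-inducible cytochrome P450, stood at 132, 484 and 158 FPKM (3.67, 3.49 to 3.86). The lowest member was the flavin monooxygenase gene Fmo2 at 4.51, 3.04 and 3.00 FPKM (0.725, 0.551 to 0.949). Nnmt, the nicotinamide methyltransferase of fat and liver, belonged to no list and ranked among the 15 highest genes, at 5.25, 27.5 and 8.79 FPKM (5.31, 3.74 to 7.70).

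Transcription factors of the C/EBP family, which act early and late in adipocyte differentiation and in myeloid cells, were higher for Cebpa and Cebpb and less so for the others. Cebpb stood at 16.8, 56.1 and 23 FPKM (ratio 3.34, 2.85 to 3.93). Cebpd stood at 10.3, 21.6 and 8.34 FPKM with a ratio of 2.02 (1.73 to 2.37), just short of a call after the pseudocounts. Cebpz, a more distant member, was lowest at 16.1, 13.2 and 16.2 FPKM (0.816, 0.719 to 0.926). Windows around the start sites of the called genes were therefore searched for the letters TTGCNNAA, a form of the C/EBP recognition sequence, on both strands. Windows ran from 250 bases before to 50 bases after the start site, 300 bases in all, in the RefSeq table of build GRCm38.p6. A match was found for 35 of 215 called genes with a window (16.3%) and for 896 of 8567 tested genes with one (10.5%). The letters TATAAA, the core of the TATA box, were found in 17.7% and 8.80% of the same genes. The letters CCAAT were found in 40.9% of the called and 42.6% of the tested genes. Direct repeats of AGGTCA spaced by 1 base were found in 0 called and 4 tested genes, and those spaced by 3 bases in 0 tested genes. No test was made of these shares, and a match says nothing of binding.

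Of the 15 highest named genes 10 had a window and 3 of these held TTGCNNAA, namely Pparg, Cidec and Mgst1. Plin1 held it at 2 places. The windows of these 4 are shown to place the matches, printed 5′ to 3′ on the gene's strand, with matches in capitals. Pparg is shown at the most downstream of its 3 windows, and Cidec and Mgst1 at 1 of 2. The windows are chr6:115421816-115422115 on the plus strand for Pparg, chr6:113434715-113435014 on the minus strand for Cidec, chr6:138140277-138140576 on the plus strand for Mgst1 and chr7:79732727-79733026 on the minus strand for Plin1.
Pparg: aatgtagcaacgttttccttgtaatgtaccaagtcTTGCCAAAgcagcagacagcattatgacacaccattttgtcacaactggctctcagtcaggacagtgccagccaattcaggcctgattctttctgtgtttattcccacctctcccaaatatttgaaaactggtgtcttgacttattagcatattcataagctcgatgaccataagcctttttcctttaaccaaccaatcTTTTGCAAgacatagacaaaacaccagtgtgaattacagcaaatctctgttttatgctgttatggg
Cidec: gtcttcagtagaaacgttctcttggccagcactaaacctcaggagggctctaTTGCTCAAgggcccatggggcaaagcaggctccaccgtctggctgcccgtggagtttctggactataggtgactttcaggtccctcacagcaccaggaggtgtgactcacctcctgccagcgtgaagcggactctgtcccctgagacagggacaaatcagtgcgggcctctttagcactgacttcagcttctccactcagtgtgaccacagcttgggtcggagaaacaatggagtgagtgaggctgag
Mgst1: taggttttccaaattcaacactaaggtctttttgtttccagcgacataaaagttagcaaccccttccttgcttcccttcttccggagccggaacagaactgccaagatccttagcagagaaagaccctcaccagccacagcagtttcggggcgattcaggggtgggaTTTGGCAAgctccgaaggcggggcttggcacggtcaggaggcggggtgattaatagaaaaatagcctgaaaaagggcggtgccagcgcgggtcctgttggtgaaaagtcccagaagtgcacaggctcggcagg
Plin1: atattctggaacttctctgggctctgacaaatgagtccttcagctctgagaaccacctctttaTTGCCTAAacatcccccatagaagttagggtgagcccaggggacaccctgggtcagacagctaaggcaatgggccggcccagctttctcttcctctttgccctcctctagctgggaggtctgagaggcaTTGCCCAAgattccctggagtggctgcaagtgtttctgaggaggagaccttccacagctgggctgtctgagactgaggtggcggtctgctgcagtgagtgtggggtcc
In Pparg 1 match begins 16 bases before the start site and the other 215 before it. Those of Plin1 begin 187 and 58 bases before the start, that of Cidec 198 and that of Mgst1 83 bases before it.

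Matrix genes stood higher in part. Of 19 small proteoglycans and other matrix proteins 5 were called, with a median log2 count ratio of 0.69. Of 16 listed collagens 0 were called, with a median of 0.45 and long transcripts, 4759.25 nucleotides at the median. Efemp1, an elastic fibre protein of the fibulin family, was highest at 1.30, 10.1 and 1.93 FPKM and rested on 11 vehicle reads (ratio 8.34, 4.43 to 17.4). Gsn, the actin-severing protein gelsolin, which also circulates in plasma, stood at 171, 565 and 167 FPKM (3.30, 3.19 to 3.43). Mgp, an inhibitor of calcification, stood at 9.63, 23.3 and 11.3 FPKM (2.41, 1.63 to 3.62). The most abundant proteoglycans did not share this, since Bgn stood at 222, 197 and 256 FPKM (0.873, 0.831 to 0.917) and Fmod was lowest at 0.763 (0.667 to 0.872). For these matrix genes the 25(OH)D3 library lay near vehicle, with a median log2 count ratio of -0.06.

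Listed and tested collagens with a ratio above 2 by counts were Col5a3 at 2.23 (1.73 to 2.88), the fibrillar collagen Col3a1 at 2.13 (1.97 to 2.30) and Col18a1 at 2.04 (1.51 to 2.78). Col3a1 stood at 32.8, 56.6 and 46.2 FPKM, under 2-fold on that scale. Of the listed collagens Col14a1 was lowest at 0.972 (0.800 to 1.18). The list leaves out other loci of the family, and over all 22 tested loci with the symbol stem Col the median log2 count ratio was 0.18, with 15 above and 7 below 0. The lowest of these was Col11a2, a minor fibrillar collagen of cartilage, at 2.55, 1.08 and 3.45 FPKM (0.466, 0.328 to 0.654). Markers of fibroblastic reticular cells, the stroma that guides lymphocytes, were split, with 7 of 14 above and 7 below 0 and a median of -0.05. The surface protein gene Ly6c1, carried by stromal, endothelial and some immune cells, was the 1 called member at 74.8, 164 and 93.1 FPKM (2.19, 1.93 to 2.48). Cxcl12, a stromal chemokine, stood at 194, 256 and 156 FPKM (1.29, 1.23 to 1.35), and the follicular chemokine Cxcl13 at 317, 273 and 356 FPKM (0.860, 0.813 to 0.910). Blood vessel, lymphatic and pericyte lists had medians of 0.14, 0.13 and 0.19. In them only Mcam, an adhesion molecule of pericytes and endothelium, was called, at 8.20, 19 and 6.85 FPKM (2.31, 1.96 to 2.74).

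Erythroid and neutrophil genes took small shares of the counts in both libraries. Of 7 tested erythroid genes 4 were called, with a median log2 count ratio of 1.14 and a median transcript length of 699 nucleotides. The beta globin gene Hbb-bs was highest at 22.5, 90.5 and 35.7 FPKM (ratio 4.02, 3.18 to 5.11). The alpha globin gene Hba-a1 stood at 58.3, 159 and 77.6 FPKM (ratio 2.86, 2.41 to 3.4), and its near-identical copy Hba-a2 can exchange reads with it. Alas2, the first enzyme of haem synthesis in red cell precursors, rested on 16 and 43 reads (3.01, 1.66 to 5.72), while Tfrc, the transferrin receptor of dividing cells, was lowest at 15.3, 10.5 and 14.7 FPKM (0.673, 0.583 to 0.777). The whole list took 0.0128% of vehicle counts and 0.0205% of 20(OH)D3 counts. Neutrophil genes were called in 4 of 11 members, Wfdc21, S100a8, S100a9 and Chil3, on 4 to 24 vehicle reads. The median log2 count ratio of the 11 was 0.58, against 1.14 with 25(OH)D3, and their median transcript length 911.5 nucleotides. S100a8 stood at 3.20, 23.1 and 35.3 FPKM and S100a9 at 7.82, 20.5 and 38.7 FPKM. The granule genes Ngp, on 8 and 5 reads, and Camp, on 3 and 2, were not higher. Their 25(OH)D3 values of 11.4 and 9.53 FPKM brought them past the filter. Csf3r and Cxcr2, receptors of mature neutrophils, had ratios of 1.04 (0.821 to 1.31) and 0.787 (0.633 to 0.976). The elastase gene Elane, Ltf, Ly6g, Mmp8 and Retnlg were under the filter. Wfdc17, a secreted whey acidic protein of myeloid cells that lies near Wfdc21 on chromosome 11, ranked among the 15 highest genes at 7.69, 44.1 and 10.4 FPKM (5.73, 3.71 to 9.18).

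Secreted proteins of the acute phase were dominated by haptoglobin, Hp, which binds free haemoglobin and stood at 56.6, 376 and 88.8 FPKM (ratio 6.51, 5.98 to 7.11). Orm1, an acid glycoprotein, stood at 13.8, 44.0 and 30.3 FPKM (3.18, 2.44 to 4.19). The usual liver acute phase genes Saa1, Saa2, Apcs and Hpx were under the filter, and Serpina3n and Lrg1 had ratios of 1.23 (1.13 to 1.32) and 1.61 (1.47 to 1.77). Slpi, a protease inhibitor of secretions, was the 1 called lower member, at 70 and 23 reads.

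Macrophage genes stood somewhat higher, with 15 of 18 above 0, a median log2 count ratio of 0.32 and 2 called. Besides C1qb the called member was Cd5l, a secreted protein of tissue macrophages, at 10.5, 24.2 and 7.75 FPKM (ratio 2.32, 1.94 to 2.79). Adgre1, which encodes F4/80, stood at 3.20, 6.10 and 2.65 FPKM (1.91, 1.46 to 2.50). Markers of the sinus macrophages of the node lay near vehicle, with Siglec1 at 1.08 (0.999 to 1.17) and Marco at 1.12 (1.05 to 1.2). The efferocytosis receptor Mertk was lowest at 0.852 (0.722 to 1.01). Complement genes stood above 0 in 12 of 15 with 3 called. The highest was Cfd, the protease factor D, which is also on the adipocyte list and stood at 607, 3591 and 1031 FPKM (5.91, 5.72 to 6.11). C3, the central component, stood at 551, 559 and 584 FPKM (1.00, 0.978 to 1.03). Cr2, the complement receptor of B cells and follicular dendritic cells, was lowest at 0.800 (0.756 to 0.847).

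The type I interferon list held 1 called member of 24 and the interferon gamma list 2 of 17. Over all loci 2.51% were called higher. Among 24 listed type I interferon-stimulated genes, with a median log2 count ratio of 0.10, Ifi27l2a was the 1 called member. The list leaves out Ifitm3, which was called and is described below. Next on the list came Ifi27, a relative of Ifi27l2a, at 133, 193 and 196 FPKM (ratio 1.66, 1.5 to 1.84). The antiviral GTPase Mx1 was lowest at 15.6, 11.4 and 18.3 FPKM (0.728, 0.616 to 0.858). The list of genes induced by interferon gamma stood at a median of 0.42, with 14 of 17 above 0 and 14 with a counting interval above 1. The guanylate-binding protein genes Gbp6, Gbp2, Gbp5, Gbp7 and Gbp3 had ratios between 1.26 and 1.68, and Gbp4 one of 0.985 (0.940 to 1.03). Socs1, an interferon-induced brake on cytokine receptors, had a ratio of 2.75 (2.25 to 3.36), with 14.6, 40.2 and 28.1 FPKM. It was the 1 called member of the 8 suppressors of cytokine signalling, whose median was -0.09 and whose lowest member was Cish at 0.810 (0.639 to 1.02).

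The letters GAAA, any 2 bases and GAAA again, searched on both strands as the core of the interferon-stimulated response element, were found in the start-site windows of 10 of 15 type I interferon-stimulated genes with a window (66.7%). They were found in 9 of 215 called genes (4.19%) and 336 of 8567 tested genes (3.92%). Called genes with such a match included Socs1 and Ifitm3, a membrane protein that restricts virus entry, which stood at 117, 277 and 118 FPKM (ratio 2.37, 2.13 to 2.63). The others were Agmo, Cd59a, Clec2d, Gzma, Psmb3, Rpl38 and Znhit1. The windows of Socs1 and Ifitm3 are shown as examples, chr16:10785487-10785786 and chr7:141010695-141010994, both on the minus strand of GRCm38.p6, with matches in capitals. In Socs1 the 2 matches overlap by 4 bases, and in Ifitm3 both lie after the start site.
Socs1: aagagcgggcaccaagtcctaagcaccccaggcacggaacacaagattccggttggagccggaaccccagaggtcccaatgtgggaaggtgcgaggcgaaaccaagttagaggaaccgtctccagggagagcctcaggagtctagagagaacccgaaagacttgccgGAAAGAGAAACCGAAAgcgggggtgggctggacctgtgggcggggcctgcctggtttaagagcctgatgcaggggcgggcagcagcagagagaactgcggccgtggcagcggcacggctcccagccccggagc
Ifitm3: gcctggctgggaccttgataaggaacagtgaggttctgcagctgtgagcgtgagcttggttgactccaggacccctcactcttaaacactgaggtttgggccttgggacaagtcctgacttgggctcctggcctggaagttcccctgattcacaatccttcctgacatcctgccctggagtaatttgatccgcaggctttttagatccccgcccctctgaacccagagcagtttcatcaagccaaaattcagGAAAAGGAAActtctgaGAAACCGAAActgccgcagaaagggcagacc
No window was listed for Ifi27l2a.

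Lymphocyte genes stood lower by small amounts. Of 21 T cell genes 18 were below 0, with a median log2 count ratio of -0.32, and of 20 B cell genes 19, with a median of -0.22. In bulk tissue, fewer cells of a type and less RNA per cell cannot be told apart, and a level on either scale depends on what else was sequenced. Beside these values, the share of counts in the fat lists was 1.31% in the vehicle library and 3.03% in the 20(OH)D3 library, and its part in the lymphocyte values was not tested. Bcl11b, a transcription factor of T cell commitment, was lowest at 17.8, 11.1 and 15.7 FPKM (ratio 0.623, 0.568 to 0.684). The T cell lists spread more than counting error, from Bcl11b to Cd2 at 1.11 (1.03 to 1.18), and the 3 chains of the CD3 complex differed among themselves. Cd3e stood at 112, 79.2 and 136 FPKM (0.709, 0.649 to 0.774), Cd3d at 91.8, 81.2 and 96.6 FPKM (0.883, 0.802 to 0.972) and Cd3g at 190, 199 and 210 FPKM (1.07, 0.992 to 1.16).

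Regulatory T cell genes had a median of -0.14, from the surface receptor gene Tnfrsf18 at 1.23 (1.02 to 1.48) to the transcription factor Ikzf4 at 4.44, 2.01 and 3.75 FPKM (0.450, 0.343 to 0.586). Foxp3, the factor that defines these cells, stood at 16.7, 13.0 and 16.9 FPKM (0.770, 0.675 to 0.878). Cytotoxic and natural killer genes had a median of 0.29. Gzma, a granule protease, was called at 9.29, 23.2 and 6.86 FPKM (2.50, 1.83 to 3.45), while the abundant Ccl5 stood at 1150, 956 and 1359 FPKM (0.831, 0.791 to 0.873). Germinal centre genes were lower, with a median of -0.28 and 10 of 13 below 0.

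Among antibody genes the classes went different ways. Ighg1, the constant region of IgG1, stood at 80.5, 17.1 and 2.76 FPKM and Ighe, that of IgE, at 12.3, 2.65 and 0.490 FPKM. These were 4.61-fold (3.86 to 5.52) and 4.64-fold (3.03 to 7.36) lower by counts with 20(OH)D3, and lower still in the 25(OH)D3 library. Ighg3 was called higher at 6.82, 25.1 and 4.39 FPKM (ratio 3.67, 2.72 to 5.03). Igha, the constant region of IgA, was not called on its 14 and 33 reads, and the second called member was Ighg2b at 10.2, 26.4 and 8.84 FPKM (2.16, 1.71 to 2.73). Light chains stood close to vehicle, with Igkc at 2984, 3140 and 3325 FPKM (1.05, 1.02 to 1.08). Plasma cell genes had a median of 0.05, with Jchain at 33.8, 41.2 and 8.87 FPKM (1.19, 1.04 to 1.37) and Prdm1 on 74 and 57 reads.

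Dendritic cell, antigen presentation and chemokine genes stood close to vehicle. Migratory dendritic cell genes had a median of -0.17, resident and plasmacytoid ones -0.09, MHC class I genes 0.05 and MHC class II genes -0.07. In each 0 were called, beside 2.51% of all loci called higher. Xcr1, the receptor of cross-presenting dendritic cells, was the lowest resident marker at 7.13, 4.62 and 5.68 FPKM (ratio 0.648, 0.532 to 0.789), and Cd274, which encodes PD-L1, stood at 18.6, 25.0 and 23.3 FPKM (1.35, 1.2 to 1.5). Of 28 chemokine genes and receptors 14 were above and 14 below 0. Ccl8, a monocyte-attracting chemokine, was the 1 called member, at 123, 358 and 147 FPKM (2.91, 2.58 to 3.29).

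Genes tied to vitamin D signalling were at low levels in this tissue. Vdr, the receptor, was listed at 0.873, 0.690 and 0.494 FPKM, under the filter, with 34 and 24 reads (ratio 0.790, 0.448 to 1.37). Cyp24a1, the enzyme that degrades active vitamin D and a classical target of the receptor, had 0 reads with vehicle and 4 with 20(OH)D3, and Cyp27b1, the activating hydroxylase, 3 and 4 reads. A difference in these genes was not detectable at this depth. The partner receptor gene Rxra stood at 22.9, 25.1 and 17.2 FPKM (1.10, 1.00 to 1.2). Of the 8 list members past the filter 0 were called, the highest being Cd14, a lipopolysaccharide co-receptor, at 4.96, 8.76 and 7.51 FPKM (1.77, 1.28 to 2.45). The lowest was the 25-hydroxylase gene Cyp2r1 on 27 and 12 reads (0.497, 0.229 to 1.02).

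Gene lists of the liver X, aryl hydrocarbon and ROR receptors, of NRF2 and of NF-kB held 0 called members. They had 12, 8, 8, 17 and 16 tested members. With 2.51% of all loci called higher, 0 calls in lists of this size is near the share over all loci. Liver X receptor targets were above 0 in 12 of 12, with a median of 0.36, from Nr1h3, the receptor itself, at 22.4, 34.3 and 29.5 FPKM (ratio 1.52, 1.32 to 1.76) to Mylip at 1.01 (0.939 to 1.10). This list shares Scd1 and Srebf1 with fatty acid synthesis. Aryl hydrocarbon receptor genes had a median of 0.13, with Cyp1a1, Cyp1a2 and Ahrr under the filter. ROR receptor and type 17 genes had a median of 0.11, with Il17a, Il17f and Il22 under it. NRF2 targets had a median of 0.18, from the glutathione transferase gene Gsta3 at 2.34 (1.52 to 3.69) to the cystine transporter gene Slc7a11 at 0.685 (0.566 to 0.827). NF-kB genes were lower in 12 of 16, with a median of -0.15, between Cyld at 0.762 (0.696 to 0.832) and Tnf at 1.54 (1.22 to 1.93).

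Several further lists had 1 called member or none, where 2.51% of all loci were called higher. Pdk4, the kinase that shuts pyruvate oxidation in fasting, was the 1 called glucocorticoid target, at 5.23, 13.1 and 15.6 FPKM (ratio 2.47, 2.04 to 3.00), while Tsc22d3, the classical glucocorticoid-induced gene, was lowest at 111, 74.3 and 81.3 FPKM (0.657, 0.610 to 0.708). Phlda3, a repressor of AKT signalling induced by p53, stood at 13.1, 51.4 and 29.5 FPKM (3.93, 3.28 to 4.74) in a list whose median was 0.02 and whose lowest member was Mdm2 at 0.796 (0.711 to 0.891). In the circadian clock the repressor Nr1d1 stood at 15.7, 28.6 and 16.3 FPKM (1.85, 1.63 to 2.11) and Cry1 at 8.70, 5.15 and 8.05 FPKM (0.591, 0.470 to 0.740), with 0 of 16 called. Among 15 immediate early genes 0 were called, between Jun at 1.54 (1.26 to 1.90) and Cyr61 at 0.685 (0.529 to 0.883). Nnat, a brain and adipose protein from an imprinted gene, was the 1 called of 9 imprinted growth genes at 41.7, 242 and 29.1 FPKM (5.75, 5.17 to 6.42). Of those genes 8 stood above 0, with a median of 0.78, against 0.01 in the 25(OH)D3 library.

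Mitochondrial energy genes mostly stood higher. Of 31 nuclear-encoded respiratory chain genes 31 had a counting interval above 1 and 7 were called, with a median log2 count ratio of 0.78. In genes with many reads such an interval lies above 1 at small ratios, and its share over all loci was not counted. The listed transcripts were short, with a median of 625 nucleotides. All protein-coding loci under 500 and at 500 to 1000 nucleotides had median ratios of 0.15 and 0.09. The called members were Cox6c, Ndufa4, Ndufa5, Cox7b, Ndufb3, Atp5j and Ndufa2. Cox7b, a subunit of cytochrome oxidase, stood at 89.0, 208 and 148 FPKM (ratio 2.40, 2.18 to 2.64). Atp5a1, the alpha subunit of ATP synthase, had the smallest ratio at 221, 242 and 258 FPKM (1.11, 1.06 to 1.16).

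Genes of fatty acid oxidation and the TCA cycle, with longer transcripts of 1602.5 nucleotides at the median, were above 0 in 21 of 22 with a median of 0.72. Echs1, which hydrates enoyl-CoA, was highest at 30.8, 77.2 and 40.2 FPKM (ratio 2.42, 2.15 to 2.72). Carnitine transferase Cpt2, at the inner membrane, had a ratio of 2.09 (1.84 to 2.38), but the outer enzyme of lymphoid and liver cells, Cpt1a, stood at 25.6, 17.8 and 17 FPKM (0.696, 0.628 to 0.770). Glycolysis genes had a median of 0.17 with Tpi1 called at 57.5, 119 and 69.5 FPKM (2.11, 1.93 to 2.31), and sterol synthesis genes a median of 0.17 with 0 called and Insig1 highest at 2.07 (1.81 to 2.37).

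Of 29 cytosolic ribosomal protein genes 19 were above 0, with a median of 0.12, and 3 were called, Rpl39, Rpl38 and Rps27. The median transcript length of this list was 769.5 nucleotides. Rps27 was the fourth largest gain in counts of all called loci, at 5979, 14426 and 7784 FPKM (ratio 2.40, 2.34 to 2.46), and pseudogene copies of ribosomal protein genes can share its reads. The lowest was Rps6 at 0.828 (0.798 to 0.858). Splicing factor genes were below 0 in 21 of 24, with a median of -0.27, and the SR protein gene Srsf5 stood at 360, 262 and 345 FPKM (0.758, 0.728 to 0.788). Cell cycle genes were below 0 in 18 of 22, with a median of -0.27, and the proliferation marker Mki67 stood at 10.4, 6.79 and 8.24 FPKM (0.660, 0.591 to 0.736). Neither list had a called member, and in the 25(OH)D3 library their medians were 0.07 and -0.19.

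**Figure D4:**
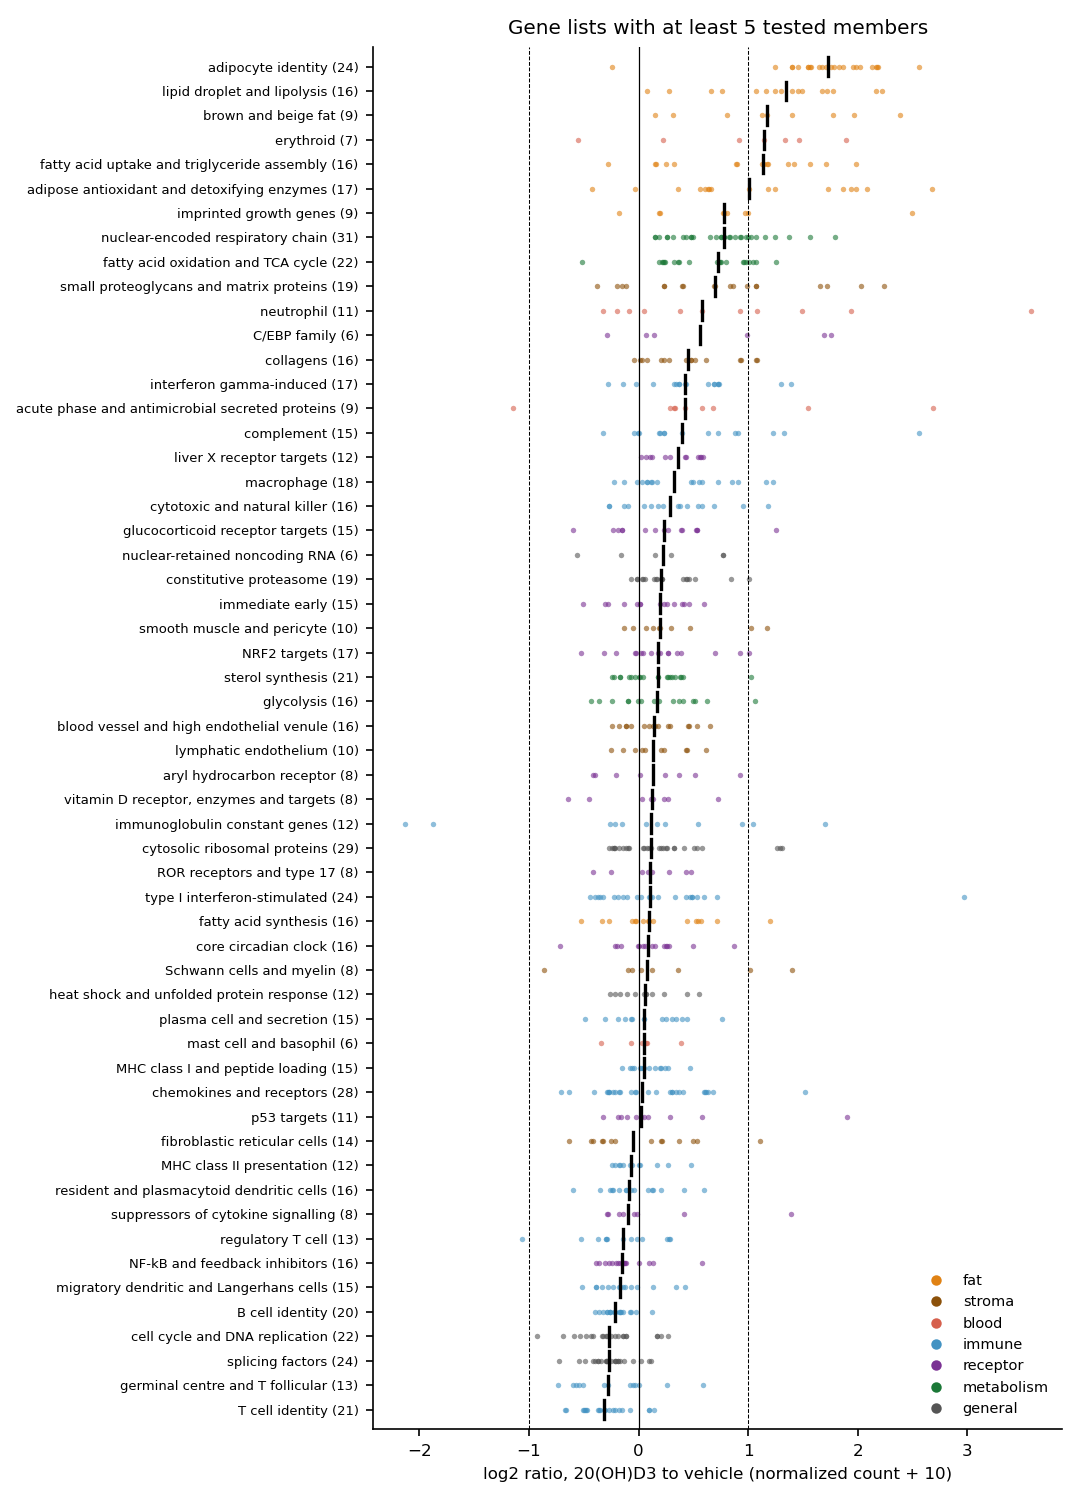
Each point is the log2 ratio of normalized count + 10 (x) of 1 tested member of a gene list, and the black bar is the list's median. The number of tested members is in parentheses, colours give the block of lists, and dashed lines mark 2-fold. The adipocyte list lies at 1.73 and the T cell list at -0.32, with 1 adipocyte gene below 0.

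At the low end few protein-coding genes passed the threshold. Of the 20 loci called lower 6 were immunoglobulin genes, 5 were counted as protein-coding and 10 rested on fewer than 20 reads with 20(OH)D3. In the 25(OH)D3 library 6 of them were also at least 2-fold below vehicle and 5 within 1.2-fold of it. Among genes that met the conditions for naming set out in the processing account, Ighg1, Ighe and Rgs11 were called. Rgs11, a regulator of G protein signalling, stood at 8.74, 2.75 and 4.65 FPKM, and its ratio was 2.28-fold lower (1.58 to 3.34). Dlgap5, a mitotic spindle protein below the expression minimum for naming and singled out after its values were seen, was called on 99 and 28 reads. The next 12 genes by that rule stood below 2-fold on at least 1 scale once the pseudocounts were added. Ccnb2, a mitotic cyclin, stood at 8.87, 4.26 and 7.34 FPKM (2.09-fold lower, 1.47 to 2.99). Tlr11, a receptor for profilin of parasites, stood at 8.15, 4.02 and 4.28 FPKM (2.03-fold, 1.6 to 2.59). Cep97, a centriolar protein, stood at 8.02, 4.12 and 10.3 FPKM (1.86-fold, 1.59 to 2.18). The others were Cep85, Art4, Erich1, Trmt10b, Zrsr2, Slc15a2, Hdgfrp2, Trmt13 and Xlr4c, at 1.68-fold to 1.90-fold lower by counts. Slc15a2, a peptide transporter, was listed at 0 FPKM in the 25(OH)D3 library.

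**Figure D5:**
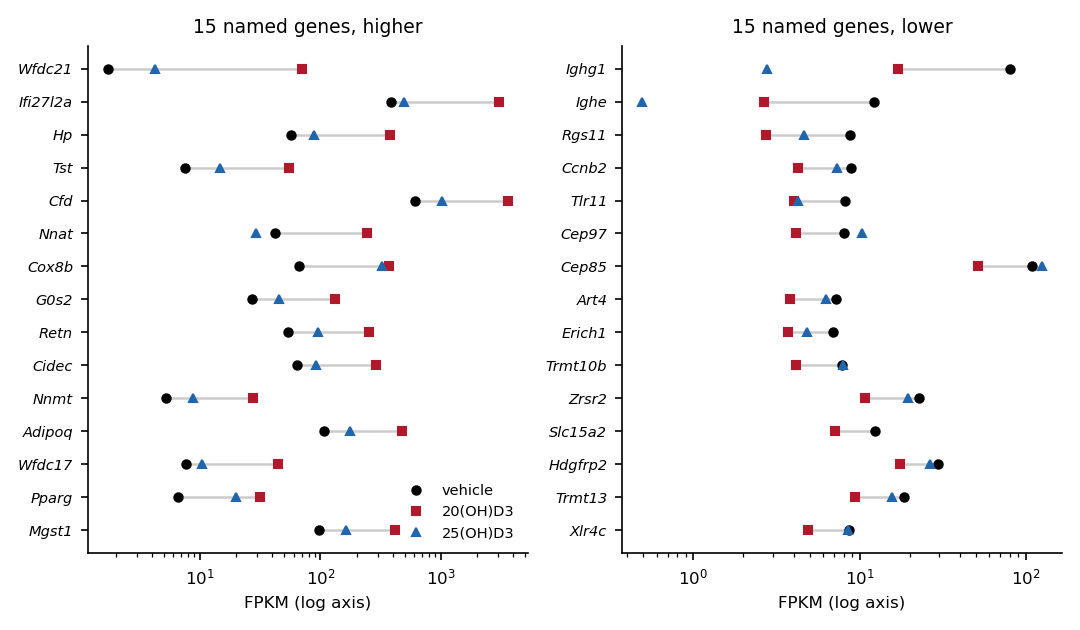
FPKM (x, log axis) of the 15 highest and 15 lowest named genes in the vehicle (black circles), 20(OH)D3 (red squares) and 25(OH)D3 (blue triangles) libraries, with a grey line from vehicle to 20(OH)D3. In 14 of the 15 higher genes the 25(OH)D3 value lies between the others, Nnat being below vehicle, and Slc15a2, listed at 0 with 25(OH)D3, has no triangle.

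The highest named genes lie on 11 chromosomes of GRCm38. Wfdc21 lies on chromosome 11 at 83746940 to 83752642 and Wfdc17 on the same chromosome at 83703991 to 83706268. Hp lies on chromosome 8 at 109575128 to 109579172, Tst on chromosome 15 at 78399556 to 78405907, and Nnmt on chromosome 9 at 48591877 to 48605153. G0s2 lies on chromosome 1 at 193272161 to 193273217, and Pparg on chromosome 6 at 115360951 to 115490399. Over the autosomes and the X chromosome, the share of loci called higher ran from 1.29% on chromosome 13 to 3.98% on chromosome 15.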

How the data were processed

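RNA of 3 inguinal lymph node libraries, 1 per group, had been sequenced. The deposited table gave, per locus, FPKM and size-factor-normalized counts, and the submitters' processing notes name STAR 2.7.0c, Cufflinks 2.2.1, Cuffdiff, Cuffnorm and build GRCm38 without their roles. The normalized counts deposited by the authors are a signal on a common scale and not raw counts. They came out as whole multiples of 1 step within 0.02 of a read for 99.9% of values in the vehicle and 20(OH)D3 libraries, which gave the reads behind the intervals. Reads of the 25(OH)D3 library were not recovered and its values carry no interval.

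Ratios were taken after adding 1 FPKM or 10 normalized counts, and a call needed 2-fold on both scales. FPKM depends on how reads were divided among isoforms, and pseudocounts understate ratios of low loci. Intervals are exact (Clopper-Pearson, conditional on the summed reads) and assume reads are independent molecules. Named genes had 1 symbol, a mean of at least 5 FPKM and at least 100 summed counts, and were no immunoglobulin segment, pseudogene, predicted model or small RNA. The 15 highest and 15 lowest by the smaller of the log2 ratios were taken, with the extremes of each gene list. Members and lists were chosen with earlier results of these data known. Loci of several symbols were kept as 1 locus. Python 3.11.15, pandas 2.3.3, numpy 2.4.6, scipy 1.17.1 and matplotlib 3.10.9 were used. Scripts were tested on simulated data.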

Additional observations from a re-analysis of the deposited data

How the results depend on the processing

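The excess of higher over lower loci held under every alternative tried. The 337 loci called higher became 208 with 5 FPKM added, 76 at 3-fold and 1098 at 1.5-fold, and stood between 268 and 475 otherwise. The 20 called lower became 66 by FPKM alone, 31 by normalized counts alone, 7 with 5 FPKM added, 51 with 1 count added, 11 at a mean of at least 5 FPKM, 2 at 3-fold and 236 at 1.5-fold. Rescaling to TPM, which shifts the median log2 FPKM ratio by -0.18, gave 288 and 30. The share of higher loci among those called, 94.4%, was 87.8% by FPKM alone and 82.3% at 1.5-fold. Of 136 recomputed values of single named genes 78 stayed near their value and 58 moved, with 0 reversed. Of 40 counts and overall medians 30 stayed and 10 moved. Of 636 list medians recomputed 597 stayed near their value, 38 moved and 1 reversed, the epithelium and keratin list with its 1 tested gene, which went from -0.33 to 0.0326 without a filter. No paired analysis was possible because each group had 1 library, and leaving out a replicate was not possible for the same reason. Depth limits loci with few reads, and 10 of the 20 lower loci had fewer than 20 reads with 20(OH)D3.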

Other observations

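The genes in this paragraph belong to no list. They were picked after their values were seen, from those called higher, so they give no share of any gene group. Cav1, the main protein of caveolae, the flask-shaped pits of the plasma membrane, stood at 61.1, 154 and 79.5 FPKM (count ratio 2.53, interval 2.37 to 2.7). Ptrf, which encodes a coat protein of caveolae, stood at 21.4, 54.0 and 29.9 FPKM (2.53, 2.30 to 2.77), and Cav2, Sdpr and Ehd2 had ratios between 2.14 and 2.39. Mpc1 and Mpc2, which together form the mitochondrial pyruvate carrier, had ratios of 2.74 (2.44 to 3.09) and 2.12 (1.85 to 2.45). The growth hormone receptor gene Ghr stood at 17.1, 51.8 and 21.7 FPKM (3.20, 2.86 to 3.60), and the lactate receptor gene Hcar1 at 3.57, 12.7 and 3.88 FPKM (3.54, 2.83 to 4.46). The carboxylesterase gene Ces1d, whose product hydrolyses lipid esters, stood at 39.8, 160 and 69.2 FPKM (3.68, 3.37 to 4.02).

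The symbol stem Hox names transcription factors that mark position along the body axis. Loci with it were looked at as 1 of 166 families of shared symbol stem with at least 8 tested members. Their median was the highest of the 166, so their values are the extreme of a ranking. The stems Chchd and Nduf came next, with medians of 0.60 each. All 19 tested Hox loci had a log2 count ratio above 0, with a median of 0.61 and 4 called, beside 2.51% of all loci. They include the antisense noncoding loci Hoxb3os and Hoxd3os1, and Hoxd3os1 is 1 of the 4, on 7 and 24 reads. No source states that counting used strand, so antisense and sense reads may not be told apart. Their median with 25(OH)D3 was 0.16. Hoxc8 was highest at 4.06, 12.7 and 6.59 FPKM (3.24, 2.45 to 4.34), and Hoxb3 lowest on 64 reads in each library (1.12, 0.779 to 1.61). The counting intervals of Hoxb6, Hoxb7, Hoxc4, Hoxd8, Hoxd9 and Hoxa10 also included 1. Hoxa10, at 0.846, 1.34 and 0.910 FPKM, passed the filter through the 20(OH)D3 library, so its place above 0 is in part built in. Families at the low end were the chromatin regulators Arid and Chd, with medians of -0.37 and -0.36. Their median transcript lengths were 5112.5 and 3124 nucleotides.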
